A study of Mus musculus with 20 samples.

Results

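The transcripts described here belong to 10 mouse genes that hold Wnt signalling in check: the secreted frizzled-related proteins Sfrp1, Sfrp2, Sfrp4 and Sfrp5, the Dickkopf proteins Dkk1, Dkk2 and Dkk3, the Wnt inhibitory factor Wif1, and the scaffold proteins Axin1 and Axin2. They were found by gene name among the 41174 probes of the array that are not controls, which carry 27962 distinct gene names. Of 12 probes with these names (2 for Sfrp1, 2 for Dkk1 and 1 for each other gene), the one with the highest mean signal over all arrays was used for each gene. Measured levels played no other part in the choice of probe. The 10 genes themselves were chosen with earlier results of these data known. Of the 10 genes, 9 were among the 32460 probes tested, and Dkk1 was not, because it was not well above background on any of the 20 arrays.

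All uteri came from adult C57bl6/J females, at least 10 weeks old, whose ovaries had been removed 10 to 14 days before a single subcutaneous injection. The vehicle group (3 uteri) received sesame oil, 100 µl. E2 (estradiol, the ovarian estrogen) was given at 250 ng in the same volume of oil, with 3 uteri taken at 2 hr and 2 at 24 hr. BPA (bisphenol A) and HPTE, a metabolite of the pesticide methoxychlor, were each given at 750 µg in oil, with 3 uteri per compound at each time. BPA and HPTE both carry a pair of phenol rings on 1 central carbon, which bears methyl groups in BPA and a trichloromethyl group in HPTE. Each uterus was extracted whole and hybridized alone (500 ng RNA, Cy3), so no cell type was separated. The labels name the vehicle uteri as 24 hr samples. The 2 hr groups were therefore set against the same 3 vehicle arrays, and all contrasts with vehicle share them.

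Wnt proteins are secreted signals that bind Frizzled receptors and the co-receptors Lrp5 and Lrp6. Binding stops a complex built on Axin from destroying beta-catenin, which then enters the nucleus and works with Tcf and Lef factors. Sfrp proteins and Wif1 bind Wnt ligands outside the cell, Dkk1 and Dkk2 bind the Lrp co-receptors, and Axin1 and Axin2 are the scaffolds of the destruction complex. Axin2 is itself a well-known target of beta-catenin, so it closes a feedback loop, and Dkk3 is a more distant relative whose action on the co-receptors is weak or absent. In the uterus Wnt signals pass between epithelium and stroma and take part in gland formation and in the growth that estrogens cause.

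The array signal of a probe is given below as its level, the log2 of the processed intensity minus the log2 of the 75th percentile of the same array. A difference is a log2 difference between group means, so 1 is a doubling. The tests are those of limma over all 20 arrays, and "rose" or "fell" means a Benjamini-Hochberg adjusted p under 0.05 over all probes tested. Replicates are separate uteri. Probe positions are those of the files (mm7), and the exon or UTR each lies in was not analysed here. On single arrays 72.72% to 81.35% of the probes passed the scanner software's test of signal over background, and correlations between arrays of a group lay between 0.9749 and 0.9929. Markers of other tissues stood apart on some arrays. The summed level of 8 pancreas genes, in multiples of the array's 75th percentile, was 2290 and 171 on E2 2 hr replicates 2 and 3 and 5.28 and 13.7 on the E2 24 hr arrays, against 0.342 to 0.624 on the others. That of 6 sperm-cell genes was 30.6 to 101 on the vehicle arrays and at most 12.4 elsewhere. Leukocyte markers (6 genes) summed to 16.3 on BPA 2 hr replicate 1 and to 7.58 to 8.71 on the BPA 24 hr arrays, against 4.4 to 5.34 in vehicle. They also lay above vehicle on BPA 2 hr replicate 2 (7.21), HPTE 24 hr replicate 1 (7.74) and E2 2 hr replicate 1 (6.77). E2 2 hr replicate 1 was the array of that group without raised pancreas markers. Calls of the antagonist and Axin genes for E2 at 2 hr against vehicle that changed with replicate 1 alone are given with that value. Contrasts between treatments are not all given with it, and pathway genes are named without it. In the fit with replicate 1 alone the other groups supply the spread, and the lone array is assumed to vary as they do. The part of the pancreas markers at 24 hr and of the sperm-cell and leukocyte markers in the results below was not tested.

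Promoter sequences (250 bases before and 50 after the transcription start, RefSeq, GRCm38.p6) were at hand for 6 of the 10 genes. Those of Wif1, Sfrp2, Dkk2 and Axin2 are shown because these genes fell together under E2 at 24 hr. They were searched on both strands for 5 motifs: GGTCA, the core of the estrogen receptor element, GGTCA followed after 3 bases by TGACC (the full palindrome, which contains the former motif), TGANTCA (AP-1), GGGCGG (Sp1) and CTTTGA (Tcf and Lef). Capitals mark the motifs found, in the orientation of the strand printed, 5′ to 3′.
Wif1, chr10:121033754-121034053, plus strand: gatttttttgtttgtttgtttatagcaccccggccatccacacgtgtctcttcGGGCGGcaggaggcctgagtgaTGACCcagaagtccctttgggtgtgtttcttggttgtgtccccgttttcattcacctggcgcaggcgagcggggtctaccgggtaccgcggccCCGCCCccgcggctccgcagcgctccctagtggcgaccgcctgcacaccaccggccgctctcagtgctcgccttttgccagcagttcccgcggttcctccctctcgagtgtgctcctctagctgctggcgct
Sfrp2, chr3:83766071-83766370, plus strand: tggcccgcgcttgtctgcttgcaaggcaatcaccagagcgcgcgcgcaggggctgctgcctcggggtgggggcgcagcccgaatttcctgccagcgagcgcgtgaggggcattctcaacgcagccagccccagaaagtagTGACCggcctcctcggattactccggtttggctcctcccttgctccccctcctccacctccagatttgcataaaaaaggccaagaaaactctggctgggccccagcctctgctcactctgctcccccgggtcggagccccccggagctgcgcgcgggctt
Dkk2, chr3:132085042-132085341, plus strand: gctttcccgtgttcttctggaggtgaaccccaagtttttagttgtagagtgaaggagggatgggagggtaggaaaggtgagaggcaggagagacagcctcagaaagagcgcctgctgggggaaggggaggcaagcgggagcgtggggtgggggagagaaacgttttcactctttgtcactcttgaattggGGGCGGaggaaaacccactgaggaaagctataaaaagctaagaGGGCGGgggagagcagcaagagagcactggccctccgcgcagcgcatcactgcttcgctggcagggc
Axin2, chr11:108920099-108920398, plus strand: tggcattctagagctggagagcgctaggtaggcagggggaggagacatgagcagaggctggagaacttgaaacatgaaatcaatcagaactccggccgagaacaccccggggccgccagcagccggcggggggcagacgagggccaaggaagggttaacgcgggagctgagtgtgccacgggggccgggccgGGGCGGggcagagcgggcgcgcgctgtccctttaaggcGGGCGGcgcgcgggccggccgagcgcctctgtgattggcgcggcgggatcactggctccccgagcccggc
GGTCA, read on the opposite strand as TGACC, stood at positions -175 to -171 from the start in Wif1 and at -110 to -106 in Sfrp2, and 40.5% of 32851 mouse promoters hold it. GGGCGG or its complement occurred 2 times each in Wif1, Dkk2 and Axin2 and is found in 35.7% of promoters. The full palindrome (0.07% of promoters), TGANTCA (7.81%) and CTTTGA (16%) were not in these 4 windows. In the windows not shown, GGTCA or its complement stood at -86 to -82 in Sfrp5 and at -240 to -236 in Dkk1. GGGCGG occurred 2 times in Sfrp5, and CTTTGA or its complement 2 times in Dkk1. These matches describe the letters of the windows and say nothing of binding.

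Axin2 rose in all 3 treatments at 2 hr and fell below vehicle in all 3 at 24 hr (probe at chr11:109059707-109059766, mm7). Its level was 1.40, 1.02 and 1.31 in vehicle, 2.62, 2.47 and 2.35 under E2 at 2 hr, 2.11, 2.31 and 1.78 under BPA, and 2.19, 2.36 and 2.03 under HPTE. Every 2 hr array lay above every vehicle array. The differences from vehicle were 1.24 for E2 (SE 0.15, 2.36-fold, limma adjusted p = 1.83e-05), 0.83 for BPA (SE 0.15, 1.77-fold, adjusted p = 0.000303) and 0.95 for HPTE (SE 0.15, 1.94-fold, adjusted p = 7.52e-05). At 24 hr the levels were -0.39 and -0.60 under E2, 0.58, 0.64 and 0.55 under BPA, and 0.49, 0.38 and 0.80 under HPTE. All 8 of these arrays lay below the vehicle arrays, with the E2 arrays lowest. Axin2 fell by 1.73 under E2 (SE 0.16, limma adjusted p = 3.3e-07), by 0.65 under BPA (SE 0.15, adjusted p = 0.00961) and by 0.68 under HPTE (SE 0.15, adjusted p = 0.00253). The BPA call at 24 hr was lost without vehicle replicate 1 (-0.57, limma adjusted p = 0.0537), with spike-in scaling (-0.77, adjusted p = 0.167) and with slide as a fixed block (-0.60, adjusted p = 0.0912). Within slides the BPA difference at 24 hr was -0.37 and -0.72, that of E2 -1.91 and that of HPTE -0.50. From 2 to 24 hr Axin2 fell by 2.97 under E2, fell by 1.47 under BPA and fell by 1.64 under HPTE.

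Axin1, the constitutive scaffold of the destruction complex, rose at 2 hr under the xenoestrogens. Its probe spans chr17:24377327-24378214 (mm7). The levels were -0.56, -0.15 and -0.02 in vehicle, 0.37, 0.32 and 0.44 under BPA at 2 hr, 0.10, 0.18 and 0.32 under HPTE, and -0.18, 0.07 and 0.02 under E2. The BPA and HPTE arrays all lay above vehicle, while the E2 arrays overlapped it. Differences from vehicle were 0.62 for BPA (SE 0.11, 1.54-fold, limma adjusted p = 0.000322), 0.45 for HPTE (SE 0.11, 1.36-fold, adjusted p = 0.00387) and 0.22 for E2 (95% interval -0.02 to 0.45, adjusted p = 0.17). Set directly against E2 at 2 hr, BPA was higher by 0.41 (limma adjusted p = 0.0206) and HPTE by 0.23 (adjusted p = 0.184). The BPA and E2 difference was lost without E2 2 hr replicate 1 (0.33) or BPA 2 hr replicate 1 (0.41), with slide as a fixed block (0.37, limma adjusted p = 0.106), in a fit of the compared groups alone (adjusted p = 0.115) and with spike-in scaling (0.57, adjusted p = 0.421). In a fit of the compared groups alone the HPTE difference from vehicle did not pass (limma adjusted p = 0.0634). Without vehicle replicate 3, Axin1 passed for E2 as well (0.33, limma adjusted p = 0.0429). Under spike-in scaling neither xenoestrogen passed (0.71 and 0.69, limma adjusted p = 0.0869 and 0.0871). Vehicle replicate 1 was the lowest of the 20 arrays for Axin1. At 24 hr the differences were 0.16, 0.09 and -0.10 for E2, BPA and HPTE, and none passed. From 2 to 24 hr Axin1 fell by 0.54 under BPA and by 0.55 under HPTE.

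**Figure D1:**
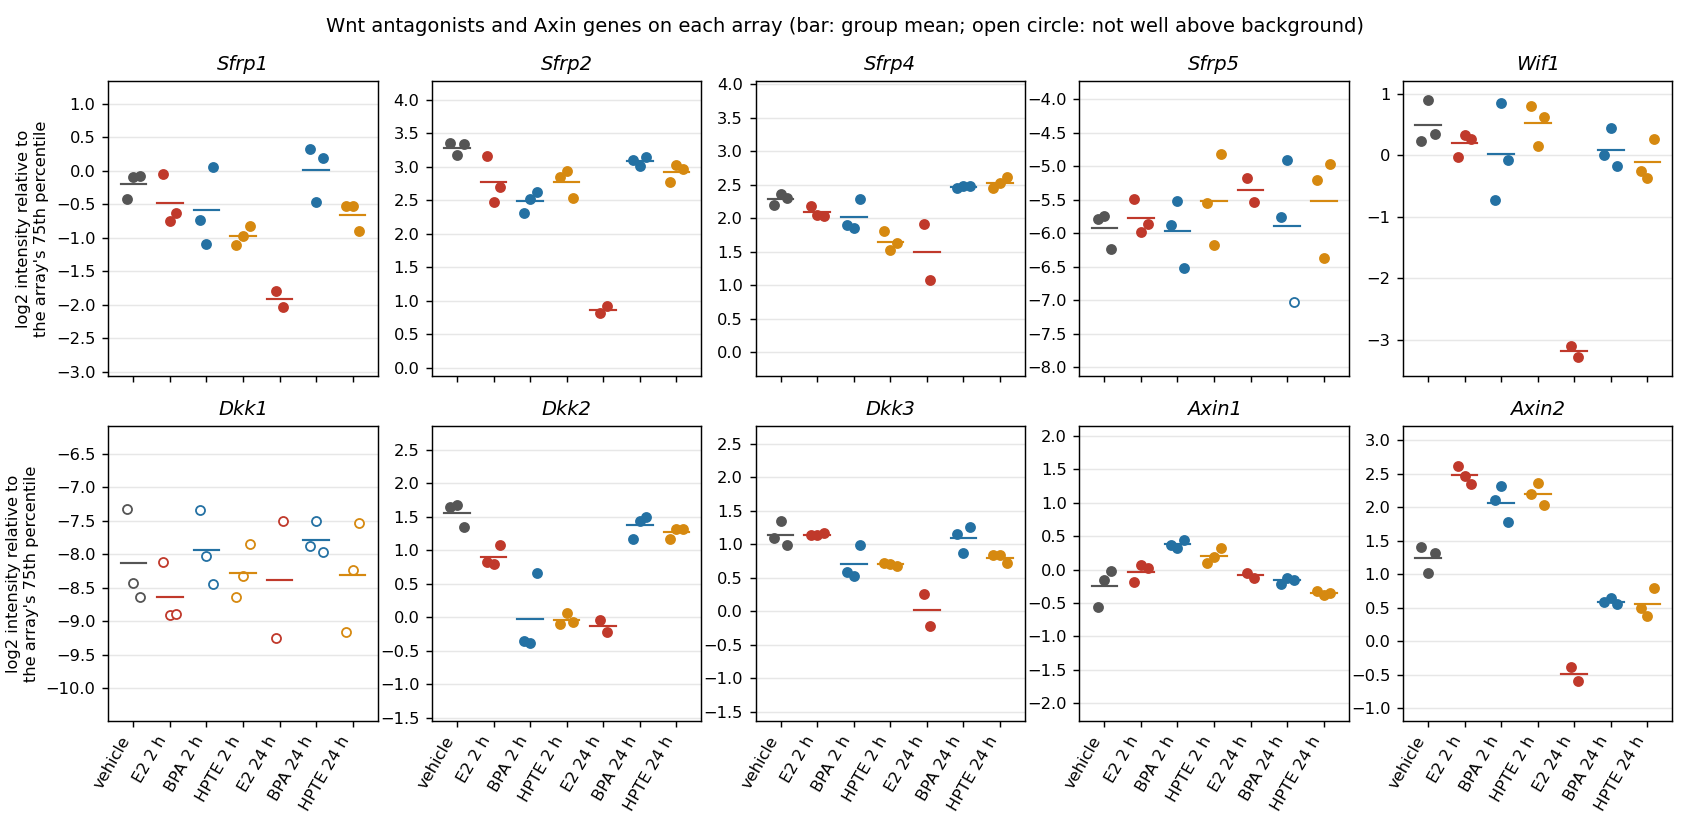
Level of each gene (log2 intensity relative to the 75th percentile of the array, each panel with its own axis) on the 20 arrays, grouped by treatment and time. Points are single arrays and bars group means. The E2 24 hr arrays of Wif1 lie at -3.1 and -3.28, below all others, and all 20 points of Dkk1 are open because none was well above background.

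Wif1, which binds Wnt ligands in the extracellular space, had the largest change of the 9 genes tested. Its levels were 0.23, 0.90 and 0.35 in vehicle and -3.1 and -3.28 under E2 at 24 hr (probe at chr10:120496251-120496310, mm7). It fell by 3.69 (SE 0.36, 95% interval -4.45 to -2.92, limma adjusted p = 4.39e-07), which is 12.9-fold lower. Every other array lay between -0.72 (BPA 2 hr replicate 1) and 0.90. At 24 hr the levels were 0.00, 0.45 and -0.18 under BPA and -0.25, -0.37 and 0.27 under HPTE. Their differences from vehicle were -0.40 (95% interval -1.09 to 0.28) and -0.61 (-1.30 to 0.07), and neither passed. At 2 hr Wif1 differed from vehicle by -0.30 (E2), -0.48 (BPA) and 0.03 (HPTE), with limma adjusted p of 0.543, 0.236 and 0.954. The BPA arrays at 2 hr were widely spread, at -0.72, 0.85 and -0.08, and without replicate 2 the difference was -0.89 (limma adjusted p = 0.0179). Over 12 other settings of scaling, filter, block and weights, the E2 24 hr difference ranged from -3.86 to -2.96, the latter after normexp correction, and it was -3.63 within the slide that E2 24 hr replicate 3 shares with a vehicle array.

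Fat-cell markers, summed over 5 genes, were also low on the E2 24 hr arrays (11.6 to 14.8 against 24.8 to 68.7 in vehicle), and their part in the Wif1 result was not tested. The sum lay below the vehicle range on other arrays too, given here with their Wif1 levels (0.23 to 0.90 in vehicle). These were HPTE 24 hr replicates 1 (18.6, Wif1 -0.25) and 3 (4.92, 0.27) and HPTE 2 hr replicate 1 (20.3, 0.80). The rest were BPA 2 hr replicates 1 (21.1, -0.72) and 2 (11.5, 0.85) and E2 2 hr replicate 2 (15.9, 0.33). In whole uterus, fewer cells of a type and less RNA per cell cannot be told apart. Epithelial markers (6 genes, 173 to 199 at 24 hr of E2 against 82.7 to 97.3 in vehicle), stromal markers (7 genes, 340 to 359 against 294 to 320) and smooth muscle markers (5 genes, 597 to 657 against 389 to 433) were all higher in sum on the E2 24 hr arrays. Of the 7 stromal genes 3 were called higher and 2 lower there, with a median of -0.11 against -0.15 over all probes. These sums were raised under BPA and HPTE at 24 hr too, to 343 to 411 for stroma, 465 to 646 for smooth muscle and 114 to 153 for epithelium. Under E2 at 24 hr 4 of the 6 epithelial genes were called higher and 1 lower. Endothelial markers (5 genes, 3 called lower) summed to 13.4 to 14 there, against 14.4 to 15.3 in vehicle. Leukocyte markers (6 genes, 1 called lower) summed to 3.19 to 3.2, against 4.4 to 5.34. Their part in the Wif1 result was not tested.

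Sfrp2 (chr3:83878918-83878977, mm7) was lower at 2 hr in all 3 treatments and fell furthest under E2 at 24 hr. Vehicle levels were 3.35, 3.17 and 3.34. They were 3.16, 2.47 and 2.70 under E2 at 2 hr, 2.31, 2.52 and 2.62 under BPA, and 2.84, 2.93 and 2.54 under HPTE, all below the vehicle arrays. Sfrp2 fell by 0.51 (E2, limma adjusted p = 0.0191), 0.80 (BPA, 0.000453) and 0.52 (HPTE, 0.00983), with an SE of 0.15 each. The E2 call at 2 hr was lost without vehicle replicate 1 or 3 (-0.48 each) and without E2 2 hr replicate 2 (-0.35) or 3 (-0.47). With E2 2 hr replicate 1 alone it was -0.12 (limma adjusted p = 0.687). At 24 hr the levels were 0.81 and 0.92 under E2, 3.1, 3.01 and 3.15 under BPA, and 2.77, 3.03 and 2.97 under HPTE. The E2 arrays lay far below the rest, and Sfrp2 fell by 2.42 (SE 0.17, limma adjusted p = 1.75e-08), 5.36-fold. BPA and HPTE differed from vehicle by -0.20 (95% interval -0.52 to 0.12) and -0.36 (-0.68 to -0.04, limma adjusted p = 0.0756). Sfrp2 passed for HPTE at 24 hr with quantile normalization (-0.48, adjusted p = 0.0211), and the HPTE call at 2 hr was lost without HPTE 2 hr replicate 3 (-0.40).

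Sfrp1 (chr8:22232957-22233016, mm7) fell under HPTE at 2 hr and under E2 at 24 hr. Its levels were -0.42, -0.09 and -0.08 in vehicle, -1.11, -0.97 and -0.83 under HPTE at 2 hr, and -1.79 and -2.04 under E2 at 24 hr. Neither of these groups overlapped vehicle. The HPTE difference at 2 hr was -0.77 (SE 0.27, limma adjusted p = 0.0272) and was lost without vehicle replicate 2 (-0.72) or 3 (-0.71), and without HPTE 2 hr replicate 1 (-0.70) or 2 (-0.77). It was also lost with slide as a fixed block (-0.56, limma adjusted p = 0.0976). Under E2 at 24 hr Sfrp1 fell by 1.72 (SE 0.30, 3.3-fold, limma adjusted p = 0.000137). BPA left it at 0.32, -0.47 and 0.19 at 24 hr (difference 0.21, 95% interval -0.37 to 0.78), and HPTE at -0.53, -0.53 and -0.90 (-0.46, -1.03 to 0.12). The dimmer probe of Sfrp1 gave -1.61 for E2 at 24 hr (limma adjusted p = 0.00277) and -1 for HPTE at 2 hr (adjusted p = 0.0336). At 2 hr under BPA the levels were -0.73, -1.10 and 0.06, and the difference was -0.39, or -0.72 (limma adjusted p = 0.0233) without replicate 3.

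Sfrp4 (chr13:18999998-19000057, mm7) had 2.2, 2.37 and 2.30 in vehicle. At 2 hr the HPTE arrays stood at 1.81, 1.52 and 1.63, a fall of 0.64 (SE 0.16, limma adjusted p = 0.00464), while E2 (-0.20) and BPA (-0.27) did not pass. At 24 hr the E2 arrays were at 1.92 and 1.08, a fall of 0.78 (SE 0.18, adjusted p = 0.00154). That call rested on replicate 3: without it the difference was -0.36 (limma adjusted p = 0.0579). BPA at 24 hr gave 2.45, 2.48 and 2.49 and HPTE 2.45, 2.53 and 2.62, each array above vehicle, with differences of 0.18 (95% interval -0.16 to 0.53) and 0.24 (-0.10 to 0.59) that did not pass. Sfrp5 was dim, well above background on 19 arrays, with levels between -7.03 and -4.82. Neighbouring groups overlapped in the order of means, although both E2 24 hr arrays (-5.17 and -5.53) lay above vehicle (-5.79, -5.74 and -6.23). Its intervals against vehicle all reached a change of 2-fold, and the F test over the 7 groups did not pass (limma adjusted p = 0.861). With quantile normalization Sfrp5 passed for E2 at 24 hr (1.15, adjusted p = 0.0333).

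Dkk2, an inhibitor that acts on the Lrp co-receptors, fell at 2 hr in all 3 treatments and stayed low at 24 hr under E2 (chr3:131976322-131976381, mm7). It stood at 1.65, 1.68 and 1.35 in vehicle. At 2 hr the levels were 0.82, 0.79 and 1.07 under E2, -0.36, -0.38 and 0.66 under BPA, and -0.10, 0.06 and -0.08 under HPTE. No array overlapped vehicle. Dkk2 fell by 0.67 under E2 (SE 0.21, limma adjusted p = 0.0256), by 1.59 under BPA (3-fold, adjusted p = 2.17e-05) and by 1.60 under HPTE (3.04-fold, adjusted p = 1.6e-05). The falls under BPA and HPTE were larger than that under E2, by 0.92 (limma adjusted p = 0.00767) and 0.94 (adjusted p = 0.00689). These contrasts with E2 did not pass without scaling between arrays (-0.63 and -0.56), with spike-in scaling (-0.76 and -0.61) or with E2 2 hr replicate 1 alone (-0.85 and -0.86), and that of BPA did not pass in a fit of the compared groups alone (limma adjusted p = 0.159). The E2 call at 2 hr was lost without vehicle replicate 1 (-0.62) or 2 (-0.61) and without E2 2 hr replicate 1 (-0.63) or 2 (-0.62), and with slide as a fixed block (-0.70, limma adjusted p = 0.0638). With E2 2 hr replicate 1 alone the difference was -0.74, as large as with 3 arrays (limma adjusted p = 0.141). At 24 hr BPA (1.17, 1.44 and 1.5) and HPTE (1.16, 1.32 and 1.32) were back near vehicle, with differences of -0.19 (95% interval -0.64 to 0.25) and -0.29 (-0.74 to 0.15). Under E2 the levels were -0.04 and -0.22, a fall of 1.69 (SE 0.23, limma adjusted p = 1.37e-05). From 2 to 24 hr Dkk2 rose by 1.40 under BPA and 1.31 under HPTE and fell by 1.03 under E2.

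Dkk3 (chr7:108032840-108032899, mm7) moved less. Vehicle levels were 1.09, 1.34 and 0.99. E2 at 2 hr gave 1.13, 1.13 and 1.16, a difference of 0.00 (95% interval -0.30 to 0.31). BPA at 2 hr gave 0.58, 0.53 and 0.99 and HPTE 0.72, 0.70 and 0.67, falls of 0.44 each (SE 0.14, limma adjusted p = 0.0186 and 0.0184). The BPA call was lost without vehicle replicate 2 (-0.34), BPA 2 hr replicate 1 (-0.38) or replicate 2 (-0.35), and the HPTE call without vehicle replicate 2 (-0.34). At 24 hr Dkk3 stood at 0.26 and -0.22 under E2, a fall of 1.12 (SE 0.16, 2.17-fold, limma adjusted p = 2.02e-05). BPA (1.15, 0.86 and 1.26) overlapped vehicle, and HPTE (0.84, 0.84 and 0.71) lay below it by 0.34 (adjusted p = 0.0777). Dkk1, the best-known inhibitor of the family, has 2 probes here and neither was well above background on any array, so no fold is given for it.

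**Figure D2:**
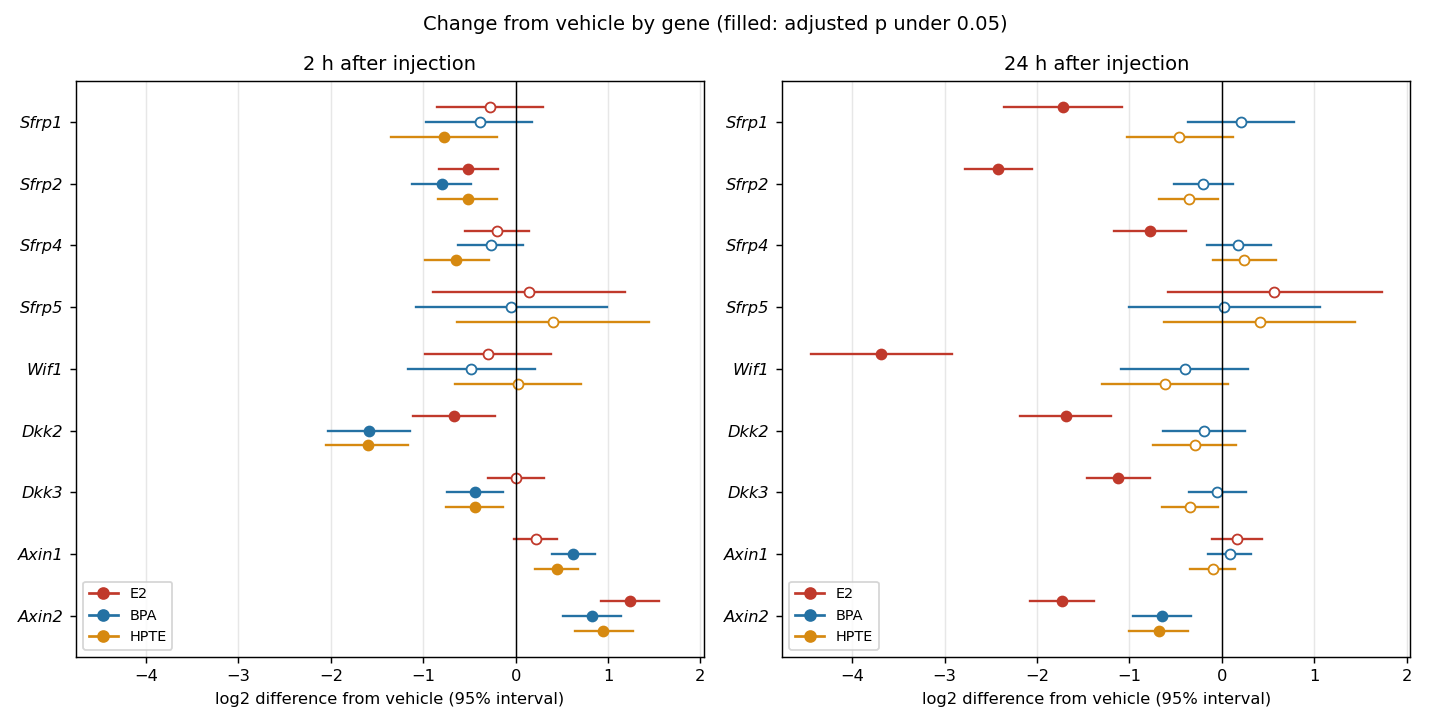
Log2 difference from vehicle with its 95% interval for the 9 genes tested, at 2 hr (left) and 24 hr (right), for E2, BPA and HPTE. Filled points passed an adjusted p under 0.05. At 24 hr 7 genes passed for E2 and 1, Axin2, for each xenoestrogen.

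Counted over the 9 genes tested, E2 at 2 hr raised 1 (Axin2) and lowered 2 (Sfrp2 and Dkk2), where 11.1% and 17.0% of all probes tested were called higher and lower. BPA at 2 hr raised 2 (Axin1 and Axin2) and lowered 3 (Sfrp2, Dkk2 and Dkk3), against 19.3% and 30.2% of all probes. HPTE at 2 hr raised the same 2 and lowered 5 (Sfrp1, Sfrp2, Sfrp4, Dkk2 and Dkk3), against 19.9% and 28.2%. E2 at 24 hr lowered 7 and raised none, against 37.6% and 26.3%, and the median difference of the 9 genes was -1.69, against -0.15 over all probes. BPA and HPTE at 24 hr each lowered Axin2 alone, against 8.03% and 19.1% of all probes lower and 5.09% and 14.9% higher. At an unadjusted p under 0.05 these counts by limma were 1 for BPA and 3 for HPTE, the latter with Sfrp2 and Dkk3. For E2 and BPA at 2 hr the share of these genes called was near that of all probes.

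The scale on which arrays were aligned moved the balance of calls over all probes. In the scaling used here 39.5% of the calls for E2 at 2 hr were higher, against 51.1% with quantile normalization, 12.6% without scaling and 26.3% with spike-in scaling. For HPTE at 2 hr the share was 41.4%, against 51.6%, 55.8% and 56.2%. For BPA at 24 hr it was 38.8%, against 11.5% without scaling and 10.9% with spike-in scaling, and for HPTE at 24 hr 43.9%, against 21.1% and 8.85%. The largest shift of the median over all probes was -0.36, for HPTE at 24 hr with spike-in scaling. With spike-in scaling Sfrp2 and Dkk2 no longer passed for E2 at 2 hr, Sfrp2, Dkk3 and Axin1 for BPA at 2 hr, and Sfrp1, Sfrp2, Sfrp4, Dkk3 and Axin1 for HPTE at 2 hr, with the direction kept in each. The rise of Axin2 at 2 hr, the fall of Dkk2 under BPA and HPTE at 2 hr and the falls of Wif1, Sfrp1, Sfrp2, Dkk2, Dkk3 and Axin2 under E2 at 24 hr passed under each scaling run. Without scaling, Dkk3 no longer passed for BPA at 2 hr, nor Sfrp1, Sfrp2, Sfrp4 and Dkk3 for HPTE at 2 hr.

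Stromal markers, summed over 7 genes, were 231 to 239 under HPTE at 2 hr and 222 to 305 under BPA at 2 hr, against 294 to 320 in vehicle. Epithelial markers were 70 to 79.6 and 47.8 to 73.1, against 82.7 to 97.3. BPA 2 hr replicate 3, the array of that group nearest to vehicle for Sfrp1, Dkk2 and Dkk3, also had the highest stromal sum of the 3 (305). Their part in the falls at 2 hr was not tested. Over the 7 groups the moderated F test passed for 8 of the 9 genes, all but Sfrp5, and for 81.3% of all probes tested.

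Levels at 24 hr were set against those at 2 hr within each compound. With vehicle uteri at 24 hr only, treatment and time since injection cannot be told apart in these contrasts. Under E2 7 genes were lower at 24 hr than at 2 hr (Sfrp1, Sfrp2, Sfrp4, Dkk2, Dkk3, Wif1 and Axin2) and none was higher, against 30.1% and 25.9% of all probes. Under BPA 4 were higher (Sfrp2 by 0.60, Sfrp4 by 0.46, Dkk2 by 1.40 and Dkk3 by 0.39) and 2 lower (Axin1 and Axin2), against 28.2% and 20.2%. Under HPTE 2 were higher (Sfrp4 by 0.88 and Dkk2 by 1.31) and 2 lower (Axin1 and Axin2), against 29.5% and 24.6%. Dkk2, lower at 2 hr in each treatment, was higher again at 24 hr under BPA and HPTE and lower still under E2, while Axin2 was lower at 24 hr than at 2 hr in all 3. The calls of Sfrp4 and Dkk3 under BPA were small and were lost without any 1 of 5 arrays (Sfrp4: BPA 2 hr replicates 1 and 2 and each BPA 24 hr replicate, 0.38 to 0.47) and of 4 (Dkk3: the same without BPA 24 hr replicate 2, 0.31 to 0.36). Arrays of these groups share slides, and with slide as a fixed block Sfrp2 (0.48, limma adjusted p = 0.0581), Sfrp4 (0.48) and Dkk3 (0.39) under BPA did not pass. Sfrp2 under BPA was also lost without scaling (0.43) and with spike-in scaling (0.39). With spike-in scaling Dkk2 did not pass under HPTE (0.76, limma adjusted p = 0.0803) or E2 (-0.92, adjusted p = 0.0793). Sfrp4 under HPTE (0.33), BPA (0.24) and E2 (-0.48), Dkk3 under BPA (0.18) and Axin1 under BPA (-0.75) did not pass there either. Sfrp4 under E2 was not called without E2 24 hr replicate 3 (-0.17).

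HPTE and BPA were given at the same dose and compared at both times, 18 gene comparisons in all, with p adjusted over all probes tested. None of the 9 genes passed at 2 or 24 hr by limma, where 0.437% and 4.08% of all probes were called in either direction. At an unadjusted p under 0.05 there was 1 at each time: Sfrp4 at 2 hr (HPTE minus BPA -0.37, 95% interval -0.71 to -0.02, limma adjusted p = 0.286) and Sfrp1 at 24 hr (-0.67, -1.24 to -0.09, adjusted p = 0.172). With array weights Sfrp1 at 24 hr passed (-0.79, adjusted p = 0.0214). For Dkk2 the difference was -0.01 at 2 hr (95% interval -0.46 to 0.43) and -0.10 at 24 hr (-0.55 to 0.34). For Axin2 it was 0.13 (-0.19 to 0.44) and -0.04 (-0.35 to 0.28), and for Sfrp2 0.28 (-0.03 to 0.60) and -0.16 (-0.48 to 0.16). Wif1 was less precise, at 0.51 (-0.18 to 1.19) and -0.21 (-0.89 to 0.47). Apart from Sfrp5, no interval reached beyond 1.24 in either direction, so smaller differences between the compounds remain possible.

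**Figure D3:**
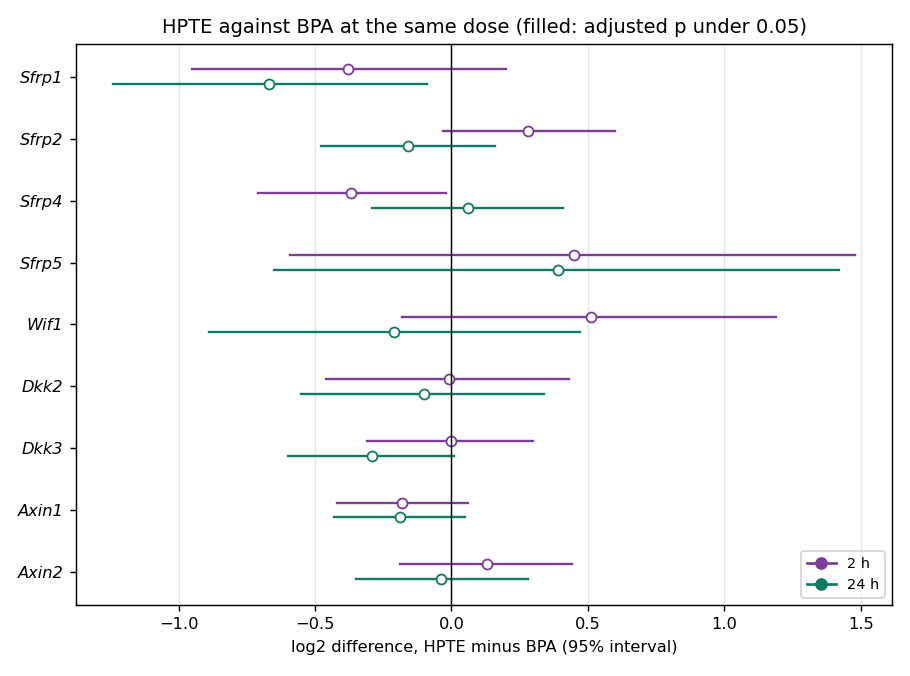
HPTE minus BPA on the log2 scale with 95% intervals for the 9 genes at 2 hr and 24 hr. All points are open, because no gene passed an adjusted p under 0.05, and the widest intervals are those of Sfrp5.

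The dose of E2 (250 ng) differed from that of the xenoestrogens (750 µg), so contrasts with E2 compare the treatments as given. At 2 hr BPA differed from E2 in 3 genes (Axin1 higher, Dkk2 and Dkk3 lower) and HPTE in 2 (Dkk2 and Dkk3 lower), against 19.0% and 16.6% of all probes in either direction. The Dkk3 differences (-0.44 each) were near the threshold and did not pass without any 1 of 12 of the 20 arrays for BPA and 11 for HPTE. At 24 hr 7 genes were higher under BPA than under E2 and the same 7 under HPTE, namely Sfrp1, Sfrp2, Sfrp4, Dkk2, Dkk3, Wif1 and Axin2, against 57.8% and 48.8% of all probes in either direction. Wif1 was higher by 3.28 (9.72-fold) under BPA and by 3.07 (8.41-fold) under HPTE, and Sfrp2 by 2.22 and 2.06. For Axin2, lowered in all 3 treatments, the gap to E2 at 24 hr was 1.09 and 1.05. With spike-in scaling the HPTE count fell from 7 to 2 (Wif1 and Sfrp2), and Sfrp1 (0.93), Sfrp4 (0.70), Dkk2 (1.07), Dkk3 (0.45) and Axin2 (0.72) did not pass, while for BPA Sfrp4 (0.81) did not pass.

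The order of group means, given without a test, put E2 at 24 hr last for Sfrp1, Sfrp2, Sfrp4, Dkk2, Dkk3, Wif1 and Axin2. For Sfrp1, Sfrp2, Dkk3, Wif1 and Axin2 its arrays did not overlap the next group, while for Sfrp4 they overlapped HPTE 2 hr and for Dkk2 HPTE 2 hr as well. Axin2 ran from E2 2 hr (2.48) through HPTE 2 hr (2.19), BPA 2 hr (2.07) and vehicle (1.24) to BPA 24 hr (0.59), HPTE 24 hr (0.56) and E2 24 hr (-0.49). The 3 groups at 2 hr overlapped their neighbours, as did BPA and HPTE at 24 hr, and vehicle was separate from both sides. The genes most like Wif1 over the 20 arrays were Cadps (Pearson r = 0.982), Rgs6 (0.961) and Ccl27 (0.956), and those most like Axin2 were Ankhd1 (0.977), Jun (0.972) and Klf2 (0.969). For Sfrp2 they were Smarca2 (0.979), Txlnb (0.978) and Tox (0.976), and for Dkk2 Atp2b1 (0.969), Rasgef1a (0.969) and Atf7ip (0.967). These correlations share the arrays and group differences and are a description. Sfrp2 and Wif1 had r = 0.85 with each other over the 20 arrays.

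Other genes of the pathway were taken from 5 lists of 81 genes in all, of which 74 were tested. Under E2 at 24 hr 9 were higher and 38 lower (median -0.54 against -0.15 over all probes), with the same background of 26.3% and 37.6%. At 2 hr the counts were 7 higher and 14 lower for E2 (all probes 11.1% and 17.0%, a like share), 13 and 36 for BPA (19.3% and 30.2%), and 13 and 28 for HPTE (19.9% and 28.2%). At 24 hr they were 1 and 10 for BPA (5.09% and 8.03%) and 1 and 15 for HPTE (14.9% and 19.1%). With spike-in scaling the calls in either direction at 2 hr fell from 21, 49 and 41 to 11, 23 and 24, and under E2 at 24 hr from 47 to 29.

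Among 8 other extracellular inhibitors tested, Notum, an enzyme that inactivates Wnt proteins by removing their lipid, fell by 3.18 under E2 at 24 hr (limma adjusted p = 5.42e-08), by 1.03 under BPA and by 1.04 under HPTE. Apcdd1, a membrane-bound inhibitor, changed by -0.95 (E2), -2.13 (BPA) and -1.87 (HPTE) at 2 hr, all lower, and fell by 0.96 under E2 at 24 hr. Frzb, the relative of the Sfrp proteins also called Sfrp3, rose by 0.37 under E2 at 24 hr, Igfbp4, better known as a carrier of insulin-like growth factors, by 0.51, and Draxin by 0.41. The list held 3 higher and 2 lower at 24 hr of E2, against 26.3% and 37.6% of all probes. Dkkl1, a Dickkopf-like protein made in testis, fell in 5 contrasts (for example by 2.44 under E2 at 2 hr). Under E2 at 24 hr Dkkl1 was not called. The sperm-cell markers named above were high on the same vehicle arrays and summed to 0.305 and 0.726 on the E2 24 hr arrays. Their part in the Dkkl1 result was not tested.

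Of 17 feedback genes and targets, 13 fell and 1 rose under E2 at 24 hr, where 37.6% and 26.3% of all probes were lower and higher. Lgr5, a receptor for R-spondins, fell by 2.27, Lef1, a nuclear partner of beta-catenin, by 1.96, and Sp5, a transcription factor induced by Wnt signals, by 1.89, while Ccnd1, the cyclin D1 gene, rose by 0.51. At 2 hr 6, 13 and 11 of them fell under E2, BPA and HPTE, against 17.0%, 30.2% and 28.2% of all probes, among them Sp5 (-2.21, -1.68 and -2.33) and Dact1, which binds Dishevelled (-1.41, -1.92 and -2.28). Myc rose by 1.34 under E2 and by 0.62 under BPA at 2 hr, and Tle3, a co-repressor, by 0.49, 1.11 and 1.49. At 24 hr Lef1 also fell under BPA (by 0.54) and HPTE (by 0.59), as did Ccnd1 (by 0.71 and 0.59).

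Of 17 receptors, 8 were lower and 2 higher under E2 at 24 hr, against 37.6% and 26.3% of all probes. Fzd7 fell by 1.95, Fzd10 by 1.91 and Kremen1, a co-receptor of Dickkopf proteins, by 1.34, while its relative Kremen2 rose by 1.35. Fzd1 fell by 1.46, 2.39 and 3.01 at 2 hr under E2, BPA and HPTE. Fzd9 rose by 0.91, 0.61 and 0.66 there, and at 24 hr it fell by 1.24 under BPA and by 1.56 under HPTE. Of 14 Wnt ligands tested, 7 fell and 2 rose under E2 at 24 hr, against the same shares of all probes. Wnt6 fell by 2.91 and Wnt11 fell by 2.87, while Wnt7b rose by 1.49 and Wnt5a by 1.14. Wnt4 rose at 2 hr in all 3 treatments (by 2.50, 2.86 and 3.25). At 24 hr Wnt4 fell below vehicle under BPA (by 0.68) and HPTE (by 0.92). Wnt3 was well above background on the 3 vehicle arrays and on neither E2 24 hr array. That puts it at least 5.25-fold lower there, taking as its ceiling the dimmest signal that passed the background test there. It passed on no array of BPA 24 hr, HPTE 24 hr or E2 2 hr either. Wnt3 was thus at least 5.58-fold, 5.62-fold and 4.88-fold lower in these groups. Of 18 genes of signal transduction, 8 fell and 1 rose under E2 at 24 hr, against the same shares of all probes. Frat2 fell by 0.92, Csnk1e by 0.86 and Frat1 by 0.85.

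**Figure D4:**
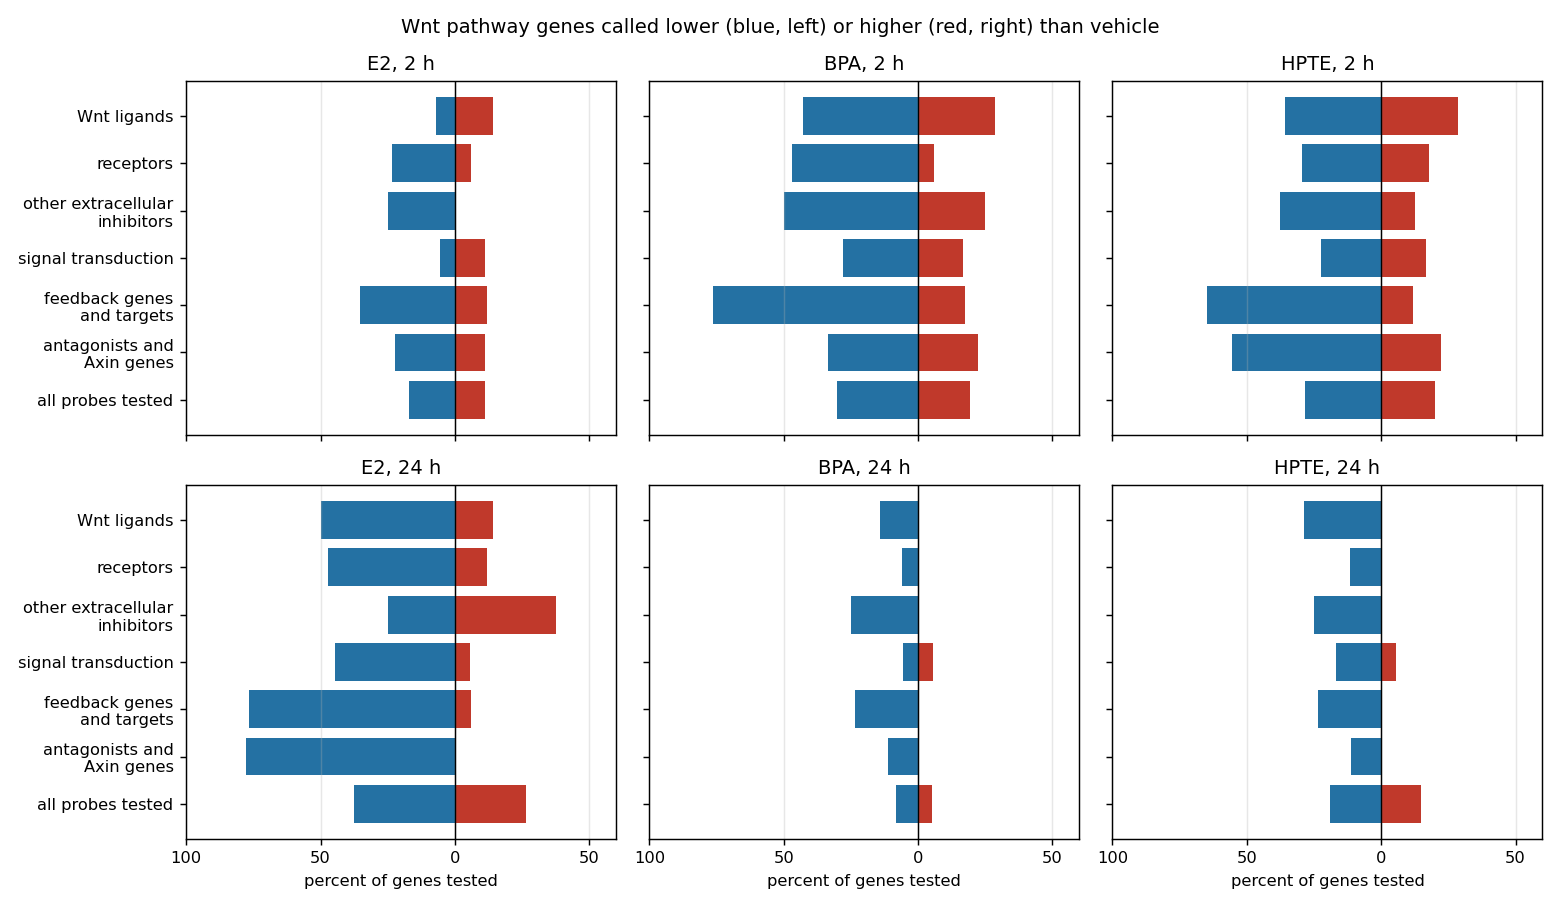
Percent of the genes tested in each list that were called lower (blue, left of 0) or higher (red, right of 0) than vehicle, for each compound and time, with all probes tested in the lowest bar of each panel. Under E2 at 24 hr the antagonists and Axin genes have 7 of 9 lower and none higher, against 37.6% and 26.3% of all probes.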

How the data were processed

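Total RNA of 20 single uteri was hybridized to one-colour Agilent mouse arrays. The deposited scanner files hold, per spot, the processed signal intensity and flags (well above background, saturated, outlier), made by the authors with Agilent Feature Extraction 9.5 (9.5.3.1 per the file headers), with probe positions on mm7. The deposited series matrix equals these intensities on all 20 arrays and was not used otherwise. Control and outlier spots were left out and spots of 1 probe averaged. The log2 intensity was centred on the array's 75th percentile (1319.8 to 2046.4 in the deposited intensity). Of 41174 probes, 32460 were tested: a probe needed a group in which each array passed the background flag, and missing values on at most 2 arrays. A means model for 7 groups was fitted in limma 3.58.1 (R 4.3.3, lmFit and eBayes, two-sided), with Benjamini-Hochberg adjustment over all probes tested within each contrast. The methods of the study describe analysis of other arrays, so this design was chosen here. The script was tested on simulated data. The number of arrays limits the precision.

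The members, gene lists and marker lists were chosen with earlier results of these data known. Each of the 10 genes is named. From each pathway list up to 3 called genes per direction and contrast, with arrays beyond all vehicle arrays, were eligible for naming. Likeness is Pearson's r over 20 arrays among tested probes with a gene symbol. The arrays lay on 6 slides and were scanned on 2 days, with BPA 24 hr replicate 3 and HPTE 24 hr replicate 2 on the later one. Alternatives covered the scaling, background correction, filter, slide, scan day, replicate number, groups in the fit, array weights, a 2-fold minimum, the other probe and each array left out. The fits on the first scan day alone and with E2 2 hr replicate 1 alone were chosen after seeing the data. The vehicle uteri carry a 24 hr label, so treatment and time since vehicle injection cannot be told apart at 2 hr.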

Additional observations from a re-analysis of the deposited data

Results flagged for a closer look

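The level at 24 hr differed from that at 2 hr of the same compound in 17 cases by limma's contrast between the times (adjusted p under 0.05). Vehicle uteri were labelled 24 hr only, so a change with time apart from treatment stays in these contrasts. Under E2 the change from 2 to 24 hr was -1.44 for Sfrp1, -1.91 for Sfrp2, -0.59 for Sfrp4, -1.03 for Dkk2, -1.12 for Dkk3, -3.39 for Wif1 and -2.97 for Axin2. Under BPA it was 0.6 for Sfrp2, 0.46 for Sfrp4, 1.4 for Dkk2, 0.39 for Dkk3, -0.54 for Axin1 and -1.47 for Axin2. Under HPTE it was 0.88 for Sfrp4, 1.31 for Dkk2, -0.55 for Axin1 and -1.64 for Axin2. On the slide that held an E2 array of each time, the change was -3.08 for Wif1 and -3 for Axin2. No group had enough arrays to look for a single outlying uterus.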

How the results depend on the processing

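The 135 gene results (60 called) were recomputed with each of 20 arrays left out and in those of 16 other settings that covered them. The 2-fold minimum gave counts only, and the second probe covered Sfrp1 alone. The fit with E2 2 hr replicate 1 alone covered contrasts with that group. Sfrp5 was absent where probes had to be well above background on all 20 arrays. Of 4491 recomputed values 4327 stayed called or stayed uncalled, 134 lost the call and 30 gained it. A reversal was a change of sign with a call in either fit, and there were 0. Uncalled differences could change sign, as Sfrp5 for E2 at 2 hr did (0.14, from -0.09 to 0.50 over the settings). The cause of these changes was not tested. The calls of the 9 genes per contrast changed as follows. With quantile normalization and with normexp, HPTE at 24 hr had 3. Without scaling, HPTE at 2 hr had 3, BPA 24 against 2 hr had 3, and BPA and HPTE against E2 at 2 hr had 1 each. With spike-in scaling, E2, BPA and HPTE at 2 hr had 1, 2 and 2, BPA at 24 hr 0, BPA 24 against 2 hr 2, BPA and HPTE against E2 at 2 hr 0 each, and HPTE against E2 at 24 hr 2, and the 74 pathway genes had 11, 23 and 24 calls at 2 hr and 29, 3 and 9 at 24 hr (E2, BPA, HPTE), where the totals reported were 21, 49, 41, 47, 11 and 16. Without the filter on dim probes, HPTE against E2 at 2 hr had 1. With slide as a fixed block, E2 and HPTE at 2 hr had 2 and 6, BPA at 24 hr had 0, BPA 24 against 2 hr 3, BPA and HPTE against E2 at 2 hr 1 each, and pathway calls at 24 hr were 6 for BPA and 7 for HPTE. With only the groups compared, HPTE at 24 hr had 2 and BPA against E2 at 2 hr 0. With array weights, HPTE at 24 hr had 3 and HPTE against BPA at 24 hr 1. With a 2-fold minimum, E2, BPA and HPTE at 2 hr had 1 each, BPA and HPTE at 24 hr 0 each, BPA and HPTE 24 against 2 hr 2 each, and BPA and HPTE against E2 at 2 hr 0 each, with pathway calls of 9, 21 and 19 at 2 hr and 21, 4 and 4 at 24 hr. On the first scan day alone, chosen after seeing the data, BPA at 24 hr had 5 pathway calls and HPTE against E2 at 2 hr had 1. With E2 2 hr replicate 1 alone, also chosen later, E2 at 2 hr had 1 of the 9 genes and 10 pathway calls, and HPTE against E2 at 2 hr 0.

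With the replicate number as a block, HPTE against E2 at 2 hr had 1 call in place of 2, and no other count moved by over 1.5 times. Same-numbered arrays did not deviate together (57 pairs, r from -0.36 to 0.33, median -0.05), and 5 arrays correlated best with their own number.

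With 1 array left out, calls among the 9 genes ranged from 1 to 3 for E2, 4 to 6 for BPA and 5 to 7 for HPTE at 2 hr, from 6 to 7, 0 to 1 and 1 to 2 at 24 hr, and from 6 to 7, 4 to 7 and 4 to 5 for 24 against 2 hr. They were 0 for HPTE against BPA at both times, 1 to 3 for BPA and 1 to 3 for HPTE against E2 at 2 hr, 7 for BPA and 7 to 8 for HPTE against E2 at 24 hr, and 8 for the F test. Pathway calls ranged from 16 to 26, 40 to 52 and 38 to 45 at 2 hr and from 37 to 51, 4 to 13 and 11 to 24 at 24 hr (E2, BPA, HPTE). The low pathway counts for BPA at 24 hr came without BPA 24 hr replicate 1 (4), vehicle replicate 1 (5) or BPA 24 hr replicate 3 (6), and the count of 1 for BPA against E2 at 2 hr came without E2 2 hr replicate 1 or BPA 2 hr replicate 1. The count of 3 for HPTE against E2 at 2 hr came without either E2 24 hr array, and the count of 2 for HPTE at 24 hr without vehicle replicate 1, E2 2 hr replicate 1 or 2, or BPA 2 hr replicate 3. The counts of 1 for E2 at 2 hr came without vehicle replicate 1 or E2 2 hr replicate 2.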
